A study of Rattus norvegicus with 12 samples.

Results

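The transcripts described here are those of 9 genes that make, cut or bind hyaluronan: the synthases Has1 and Has2, the degrading proteins Hyal2, Cemip and Cemip2, the receptors Cd44 and Hmmr, and the coat proteins Tnfaip6 and Vcan. They were chosen by gene symbol, with earlier results of these data known. All 9 were among the 14601 genes tested, of 43360 in the count table. Poly(A) RNA was sequenced from NRK-49F cells, a rat kidney fibroblast line, in 4 groups of 3 libraries. All cells had been transfected and then kept for 24 hours in medium with 0.5% serum. The groups were the human HDAC1-Flag plasmid with TGFB1 at 2 ng/ml, the empty vector pcDNA3.1 with TGFB1 at 2 ng/ml, the HDAC1 plasmid with vehicle, and the empty vector with vehicle. HDAC1 is a histone deacetylase and TGFB1 a cytokine that drives fibroblasts to make matrix. The titles of the libraries set the groups, because the treatment field numbers the TGFB1 libraries as a series of names and the design text calls all cells treated. The labels do not give the share of cells that took up the plasmid, and they do not say whether libraries of a group came from separate cultures. The p-values therefore measure the spread between libraries, which may be technical.

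Hyaluronan is a long unbranched sugar chain of the matrix between cells. Synthases in the cell membrane build it from activated glucuronic acid and N-acetylglucosamine and push it out as it grows, and Has2 is the main synthase of many mesenchymal cells. Outside the cell the chain is held by receptors such as CD44, knitted into a coat by proteins such as versican and TSG-6 (the product of Tnfaip6), and cut by hyaluronidases before its pieces are broken down in lysosomes. In the kidney it belongs mainly to the inner medulla, and it gathers in the cortical interstitium of injured and scarred kidneys.

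Library totals ran from 18397093 to 36652084 counts. Levels are in CPM, counts scaled by the library size after TMM normalization, which are not divided by gene length, so they are compared between libraries and never between genes. Hdac1 was at 464 ± 43.5 CPM with the plasmid and TGFB1, 267 ± 21.1 CPM with the vector and TGFB1, 421 ± 43.3 CPM with the plasmid in vehicle and 210 ± 4.13 CPM with the vector in vehicle (mean ± SD, n = 3 each). The related locus Hdac1l was at 1090 ± 251, 9.3 ± 1.64, 1170 ± 279 and 8.29 ± 7.33 CPM in the same groups, and how reads of the human plasmid divide between both rat genes is not known. Of the fibroblast markers, Col1a1, Fn1 and Vim had at least 2651 CPM in every library, Pdgfra had 102 to 231 CPM and Dcn stayed under 1 CPM. Krt8, a keratin of simple epithelia, was at 1144 to 1758 CPM. The 21 heart transcripts measured here, none of them at 0 in any library, summed to 150 to 167 CPM under HDAC1 plus TGFB1 and to 435 to 550 CPM under vector plus TGFB1. In vehicle they summed to 241 to 460 CPM with HDAC1 and to 72.7 to 413 CPM with the vector, the lowest value being that of vector replicate 1. Markers of other cell types also moved with the groups, given as summed CPM for HDAC1 with TGFB1, vector with TGFB1, HDAC1 in vehicle and vector in vehicle. The 4 epithelial transcripts measured of 10, mainly Krt8, summed to 1690 to 1760, 1360 to 1540, 1440 to 1690 and 1150 to 1250 CPM. The 3 macrophage transcripts of 7 summed to 5.25 to 6.12, 8.45 to 8.93, 12.2 to 15.8 and 25.9 to 28.9 CPM, and the 5 endothelial transcripts of 7 to 15.7 to 17.5, 19.3 to 22.9, 20.9 to 22.8 and 19.2 to 23.4 CPM. The part of these transcripts in the results on hyaluronan genes was not tested. A covariate of the heart transcripts was fitted, but with TGFB1 their sums do not overlap between HDAC1 and vector cells. There the fit cannot separate them from HDAC1. The heart sums also do not overlap between TGFB1 and vehicle in either cell group. In those comparisons the fit cannot separate the heart transcripts from TGFB1.

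TGFB1 moved most of the hyaluronan genes. With the empty vector, 7 members rose, led by Tnfaip6 and Has2, and 2 fell, Cemip and Has1. All 9 passed the test, beside 50.9% of all genes tested (25.9% higher and 25.0% lower). In HDAC1 cells 6 rose and 2 fell, with Hyal2 not called, beside 49.1% of all genes tested (24.9% higher and 24.2% lower). When single libraries of a comparison were left out, 7 to 8 members were called with the vector and 5 to 7 with HDAC1. The median log2 fold change of the members was 0.47 with the vector and 0.32 with HDAC1, against 0.01 and -0.02 over all genes tested. A gene was called at an edgeR adjusted p under 0.05 over all genes tested. In bulk RNA, more cells expressing a gene and more RNA of it per cell cannot be told apart.

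**Figure D1:**
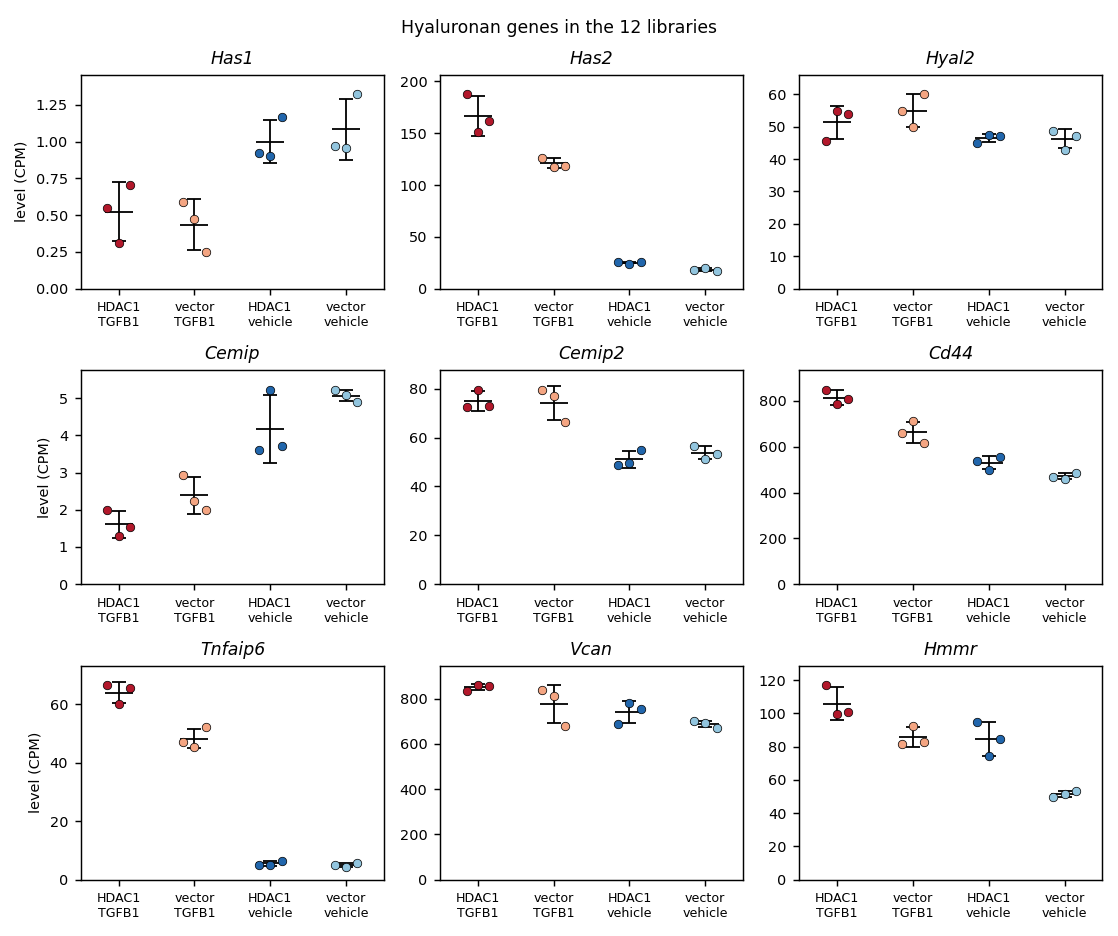
Level of each hyaluronan gene in CPM (vertical axis, starting at 0) in the 3 libraries of each group, with the mean and SD as bars. Has2 and Tnfaip6 stand far higher in the TGFB1 groups, at 117 to 188 CPM and 45.5 to 66.5 CPM, and Has1 and Cemip stand lower there.

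Has2, the inducible synthase, had 188, 151 and 162 CPM under HDAC1 plus TGFB1 and 126.5, 117 and 119 CPM under vector plus TGFB1. In vehicle it had 25.4, 24.1 and 25.6 CPM with HDAC1 and 17.8, 20.2 and 17.3 CPM with the vector. The 4 groups did not overlap, and their order ran from HDAC1 with TGFB1 at the top to the vector in vehicle at the bottom. TGFB1 raised Has2 by 6.59-fold with the vector (2.72 ± 0.08 SE on the log2 scale, edgeR adjusted p = 7.83e-16) and by 6.65-fold with HDAC1 (2.73 ± 0.08 SE, edgeR adjusted p = 3.84e-16). Ordered by log2 fold change among the 14601 genes, these rises were 96th and 71st from the top. In the RefSeq annotation Has2 overlaps the gene LOC108351495, and the counting is not stated to use strand, so reads of the 2 genes may be mixed. The same holds for Cemip2 and Eif4a1-ps7.

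Has1, a synthase of low abundance in these libraries, went the other way. It had 0.552, 0.311 and 0.707 CPM with HDAC1 and TGFB1, 0.588, 0.471 and 0.248 CPM with the vector and TGFB1, 0.925, 0.904 and 1.17 CPM with HDAC1 in vehicle, and 0.972, 0.954 and 1.32 CPM with the vector in vehicle. Every TGFB1 library lay below every vehicle library, while HDAC1 and vector libraries overlapped in both treatments. The counts behind these levels were few, 5 to 16 in the TGFB1 libraries and 18 to 37 in the vehicle libraries. Has1 fell by 1.30 ± 0.39 (SE) on the log2 scale with the vector (edgeR adjusted p = 0.00807) and by 0.94 ± 0.38 with HDAC1 (edgeR adjusted p = 0.0439). The second call ended without any of the 3 HDAC1 vehicle libraries (-0.99, -1.03 and -0.81 without replicates 1, 2 and 3) and without HDAC1 TGFB1 replicate 1 (-1.01) or 2 (-0.68). It also ended without a filter on low counts (-0.94), with the replicate block, by DESeq2 (-0.94) and with a covariate of heart transcripts (-0.85), so that it held in 3 of 12 alternatives. The heart sums of these groups do not overlap, so the covariate fit cannot separate the heart transcripts from TGFB1. The third synthase, Has3, was not analysed here.

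Among the degrading proteins the directions were split. Cemip, which human skin fibroblasts use to break hyaluronan down, had 1.99, 1.28 and 1.54 CPM with HDAC1 and TGFB1 and 2.94, 2.23 and 1.99 CPM with the vector and TGFB1. In vehicle it had 3.59, 5.23 and 3.70 CPM with HDAC1 and 5.21, 5.09 and 4.90 CPM with the vector. All TGFB1 libraries were below all vehicle libraries. The fold was 0.472 with the vector (-1.08 ± 0.20 SE on the log2 scale, edgeR adjusted p = 0.000136) and 0.382 with HDAC1 (-1.39 ± 0.21 SE, edgeR adjusted p = 1.70e-05). Counts of Cemip were 33 to 137 per library.

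The bases before the start of Cemip are shown because it has the higher counts of the 2 members that fell. They and the other promoters below come from RefSeq on the rat build GRCr8, which holds a window from 250 bases before to 50 bases after the start for 7 of the 9 members, all but Has2 and Cemip2. The 250 bases before the start are printed 5′ to 3′, and capitals mark matches, on either strand, to 6 motifs: CAGACA, found in SMAD sites, TGANTCA (AP-1), GGAATG (TEAD), CCAAT (NF-Y), TTTGAA (a cell cycle homology element) and GGGCGG (SP1).
Cemip promoter, chr1:147471484-147471733, minus strand: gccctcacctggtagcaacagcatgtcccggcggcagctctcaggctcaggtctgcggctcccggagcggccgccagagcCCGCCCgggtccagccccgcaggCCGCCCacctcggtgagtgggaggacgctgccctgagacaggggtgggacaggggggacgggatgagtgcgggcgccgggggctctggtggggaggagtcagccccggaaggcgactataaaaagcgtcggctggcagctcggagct
The window holds 2 matches to GGGCGG, 170 and 147 bases before the start and both on the opposite strand, and no match to the other 5 motifs. Of all 33469 promoter windows, 33.1% hold GGGCGG.

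Cemip2, a membrane-bound relative of Cemip that cuts hyaluronan at the cell surface in mouse, moved opposite to it. It had 72.4, 79.5 and 73.0 CPM with HDAC1 and TGFB1, 79.7, 76.8 and 66.4 CPM with the vector and TGFB1, 48.8, 49.4 and 54.9 CPM with HDAC1 in vehicle, and 56.7, 51.2 and 53.4 CPM with the vector in vehicle. All TGFB1 libraries were above all vehicle libraries, and within a treatment HDAC1 and vector libraries overlapped. TGFB1 raised it by 1.38-fold with the vector (edgeR adjusted p = 2.86e-05) and by 1.47-fold with HDAC1 (edgeR adjusted p = 3.61e-06). Hyal2, a hyaluronidase tethered to the membrane, differed little: it had 45.6 to 54.8 CPM with HDAC1 and TGFB1, 49.95 to 60.1 CPM with the vector and TGFB1, 45.1 to 47.5 CPM with HDAC1 in vehicle and 42.9 to 48.7 CPM with the vector in vehicle. With the vector TGFB1 raised it by 1.19-fold (0.25 ± 0.08 SE on the log2 scale, edgeR adjusted p = 0.0163), a call that ended without vector TGFB1 replicate 1 (0.23) or 3 (0.16) or vector vehicle replicate 2 (0.20). With HDAC1 it stood at 0.15 ± 0.08 on the log2 scale (edgeR adjusted p = 0.143).

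Because the gene length cancels when a ratio of counts is compared between libraries, 5 ratios within a library were also taken, chosen after the values were seen, and those with Cemip are given here. For each count of Cemip there were 94.6, 117 and 105 counts of Has2 with HDAC1 and TGFB1 and 43.1, 52.7 and 59.8 with the vector and TGFB1. In vehicle there were 7.08, 4.62 and 6.92 with HDAC1 and 3.41, 3.97 and 3.53 with the vector. No 2 groups overlapped. The ratio under TGFB1 was 14.2-fold that in vehicle with the vector and 17.3-fold with HDAC1, and in HDAC1 cells the ratio was 1.68-fold that of vector cells in vehicle and 2.05-fold with TGFB1. Each of the 4 comparisons gave an exact two-sided permutation p = 0.1, the smallest that 3 against 3 libraries allow. None of the 20 comparisons of ratios could therefore pass adjustment. For TGFB1 against vehicle the outcome was fixed in advance, because Has2 rose and Cemip fell without overlap. There the ratio restates both changes and is no further support. The ratio of Cemip2 to Cemip under TGFB1 was 2.97-fold that in vehicle with the vector and 3.82-fold with HDAC1. It too was fixed to be without overlap by the levels of both genes (exact permutation p = 0.1 each).

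Cd44, the main hyaluronan receptor of the cell surface, had 850, 785 and 810 CPM with HDAC1 and TGFB1 and 659.9, 712 and 618 CPM with the vector and TGFB1. In vehicle it had 536, 499 and 556.5 CPM with HDAC1 and 468, 460 and 487 CPM with the vector. As for Has2, the 4 groups did not overlap and stood in the same order. TGFB1 raised Cd44 by 1.41-fold with the vector (0.49 ± 0.07 SE on the log2 scale, edgeR adjusted p = 2.56e-06) and by 1.54-fold with HDAC1 (0.62 ± 0.07 SE, edgeR adjusted p = 1.40e-07). The counts are per gene and do not separate the splice forms of Cd44.

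Hmmr encodes RHAMM, a hyaluronan binder that also works inside dividing cells on the mitotic spindle. It had 117, 99.4 and 101 CPM with HDAC1 and TGFB1, 81.8, 92.5 and 82.9 CPM with the vector and TGFB1, 94.5, 74.3 and 84.3 CPM with HDAC1 in vehicle, and 49.6, 51.7 and 53.3 CPM with the vector in vehicle. The vector libraries in vehicle were the lowest and those with HDAC1 and TGFB1 the highest, while the groups with HDAC1 alone and TGFB1 alone overlapped. TGFB1 raised Hmmr by 1.66-fold with the vector (0.73 ± 0.09 SE on the log2 scale, edgeR adjusted p = 3.63e-07) and by 1.25-fold with HDAC1 (0.32 ± 0.08 SE, edgeR adjusted p = 0.00281). Without HDAC1 TGFB1 replicate 1 the second rise was 0.22 on the log2 scale (edgeR adjusted p = 0.0514).

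The promoter of Hmmr is printed because Hmmr is set beside genes of mitosis in a later comparison. Capitals mark the same 6 motifs.
Hmmr promoter, chr10:25665216-25665465, minus strand: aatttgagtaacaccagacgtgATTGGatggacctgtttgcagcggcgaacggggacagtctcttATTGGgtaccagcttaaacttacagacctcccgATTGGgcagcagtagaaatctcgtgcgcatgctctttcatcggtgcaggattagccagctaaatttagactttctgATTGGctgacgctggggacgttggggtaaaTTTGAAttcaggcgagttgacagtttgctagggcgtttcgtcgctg
It holds 4 matches to CCAAT, all on the opposite strand and so read as ATTGG, 228, 185, 152 and 76 bases before the start, and TTTGAA 46 bases before it. CCAAT is in 37.5% of all promoter windows, at least 4 matches are in 0.675%, and TTTGAA is in 18.3%. Among the windows of members, TTTGAA was also found for Cd44, Has1 and Vcan, and CCAAT also for Tnfaip6 and Vcan.

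In the coat, Tnfaip6 had the largest rise of the 9 members. Its product, TSG-6, links hyaluronan chains by moving heavy chains of a serum inhibitor onto them. Tnfaip6 had 66.5, 60.0 and 65.4 CPM with HDAC1 and TGFB1 and 47.2, 45.5 and 52.0 CPM with the vector and TGFB1. In vehicle it had 5.07, 5.15 and 6.39 CPM with HDAC1 and 4.95, 4.29 and 5.76 CPM with the vector. The vehicle groups overlapped, and above them the group with HDAC1 and TGFB1 lay clear of that with the vector and TGFB1. The rise was 9.52-fold with the vector (3.25 ± 0.11 SE on the log2 scale, edgeR adjusted p = 1.97e-15) and 11.6-fold with HDAC1 (3.54 ± 0.10 SE, edgeR adjusted p = 2.91e-16), 64th and 36th from the top among all genes by log2 fold change. Its promoter is printed as that of the member with the largest rise.
Tnfaip6 promoter, chr3:56911148-56911397, plus strand: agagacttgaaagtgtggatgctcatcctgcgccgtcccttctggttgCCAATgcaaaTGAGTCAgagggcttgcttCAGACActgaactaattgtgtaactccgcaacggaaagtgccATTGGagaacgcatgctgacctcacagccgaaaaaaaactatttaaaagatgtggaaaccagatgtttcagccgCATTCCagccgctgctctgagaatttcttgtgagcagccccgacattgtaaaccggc
It holds TGANTCA 192 bases before the start, as TGAGTCA, and CAGACA 173 bases before it. CCAAT is matched 202 and 131 bases before the start and GGAATG 57 bases before it. TGANTCA is in 7.33% of all promoter windows, CAGACA in 21.1% and GGAATG in 14.2%. Among the 8 windows of the 7 members, TGANTCA was found in that of Tnfaip6 only, and CAGACA also in that of Has1, which fell.

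Vcan, the large proteoglycan versican that binds hyaluronan through its head domain, was close to level. It had 836, 860.2 and 855.5 CPM with HDAC1 and TGFB1, 838, 814 and 681 CPM with the vector and TGFB1, 689, 781 and 754.5 CPM with HDAC1 in vehicle, and 699.8, 692 and 672 CPM with the vector in vehicle. TGFB1 raised it by 1.13-fold with the vector (0.18 ± 0.07 SE on the log2 scale, edgeR adjusted p = 0.0482), where the groups overlapped, and by 1.15-fold with HDAC1 (0.20 ± 0.07 SE, edgeR adjusted p = 0.0295), where they did not. The call with the vector ended in 11 of 13 alternative settings, with log2 fold changes from 0.10 (without vector TGFB1 replicate 1) to 0.19. That with HDAC1 ended in 6 of 13, among them the fits without HDAC1 vehicle replicate 1 (0.15) or without HDAC1 TGFB1 replicate 1, 2 or 3 (0.18, 0.16 and 0.16).

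**Figure D2:**
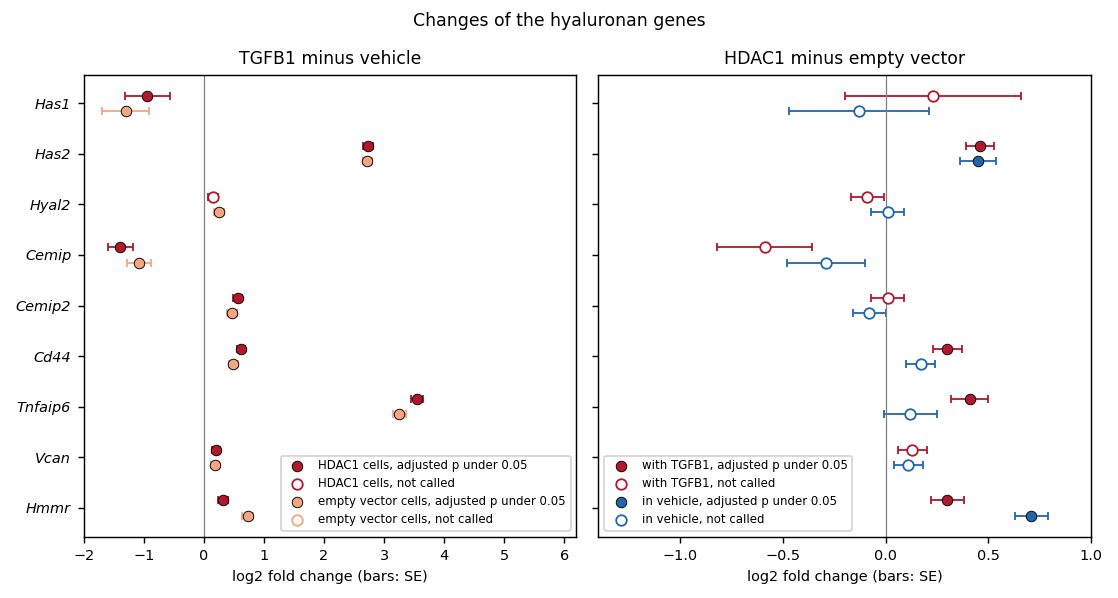
Log2 fold change of each member (horizontal axis, bars are the SE of the fit) for TGFB1 minus vehicle on the left and HDAC1 minus empty vector on the right. Filled points were called and open points were not. TGFB1 moved Tnfaip6 by 3.25 and 3.54 and Has2 by 2.72 and 2.73, while the called HDAC1 effects lie between 0.30 and 0.71.

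In vehicle the HDAC1 plasmid was set against the empty vector. Has2 and Hmmr rose and no member fell. Has2 was 1.37-fold higher with HDAC1 (0.45 ± 0.09 SE on the log2 scale, edgeR adjusted p = 0.00132) and Hmmr 1.64-fold higher (0.71 ± 0.08 SE, edgeR adjusted p = 1.93e-05), each in all 3 HDAC1 libraries above all 3 vector libraries. The share of all genes whose libraries separate in this way was not counted. The 2 members called stand beside 14.0% of all genes tested (6.64% higher and 7.32% lower). Both rises were called in all 13 alternatives, with log2 fold changes of 0.42 to 0.54 for Has2 and 0.64 to 0.80 for Hmmr. Cd44 stood at 0.17 ± 0.07 on the log2 scale (edgeR adjusted p = 0.0949), and it was called by the DESeq2 test (0.18, DESeq2 adjusted p = 0.0354) and without HDAC1 vehicle replicate 2 (0.22). The other 6 members had log2 fold changes from -0.29 (Cemip) to 0.12 (Tnfaip6).

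With TGFB1 present, Has2, Tnfaip6, Cd44 and Hmmr were higher with HDAC1 than with the vector and no member was called lower. Has2 was 1.38-fold higher (0.46 ± 0.07 SE on the log2 scale, edgeR adjusted p = 0.00117), Tnfaip6 1.33-fold (0.41 ± 0.09 SE, edgeR adjusted p = 0.00836), Cd44 1.23-fold (0.30 ± 0.07 SE, edgeR adjusted p = 0.0110) and Hmmr 1.23-fold (0.30 ± 0.08 SE, edgeR adjusted p = 0.0342). For each of the 4, all 3 HDAC1 libraries lay above all 3 vector libraries. How many of all genes separate in this way was not counted. The 4 members called stand beside 6.53% of all genes tested (2.17% higher and 4.36% lower), or 954 genes. That number was 237 and 291 without HDAC1 TGFB1 replicates 1 and 3, 405 and 495 without vector TGFB1 replicates 1 and 3, 1236 without vector TGFB1 replicate 2 and 88 with a covariate of heart transcripts. Cemip stood at -0.59 ± 0.23 on the log2 scale (edgeR adjusted p = 0.125) with overlapping groups, and Vcan at 0.13 ± 0.07 (edgeR adjusted p = 0.300).

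Has2 stayed called without any single library of this comparison. The calls of the other 3 ended without HDAC1 TGFB1 replicate 1 (Tnfaip6 0.38, Cd44 0.26, Hmmr 0.22) or replicate 3 (0.39, 0.30 and 0.33), and that of Hmmr also without vector TGFB1 replicate 1 (0.26) or 3 (0.28). The groups of this comparison also differed in the heart transcripts given above. The 18 brain transcripts measured summed to 192 to 196 CPM with HDAC1 and to 261 to 267 CPM with the vector. Map2, Dnm1 and Eno2 made up most of these sums. Gene by gene, the 18 brain transcripts had a median log2 fold change of -1.51, as did the 21 heart transcripts. The log2 sum of the heart transcripts was taken as a covariate in an alternative added after the data were seen. Because the heart sums of these groups do not overlap, that fit cannot separate the heart transcripts from HDAC1. No member was called in it, at log2 fold changes of 0.48 for Has2, 0.50 for Tnfaip6, 0.29 for Cd44 and 0.28 for Hmmr (edgeR adjusted p = 0.0631, 0.161, 0.218 and 0.368).

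Whether the HDAC1 effect depended on TGFB1 was tested as the difference of both effects, which is also the difference of the TGFB1 effects. No member was called by edgeR, beside 0.479% of all genes tested (0.137% higher and 0.342% lower), or 70 genes, a number that ran from 3 without HDAC1 TGFB1 replicate 3 to 257 without vector vehicle replicate 3 and was 0 with the heart covariate. Among the members 1 had an unadjusted p under 0.05. The DESeq2 test also called 0. For Has2 the difference was 0.01 ± 0.12 (log2, SE), for Cd44 0.13 ± 0.09 and for Tnfaip6 0.29 ± 0.15 (edgeR adjusted p = 0.980, 0.614 and 0.444). These p-values do not show that the effects were equal. Hmmr, the member with an unadjusted p under 0.05, had a difference of -0.41 ± 0.12 (edgeR adjusted p = 0.110), with adjusted p from 0.0116 without a filter on low counts to 0.788 with the heart covariate.

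**Figure D3:**
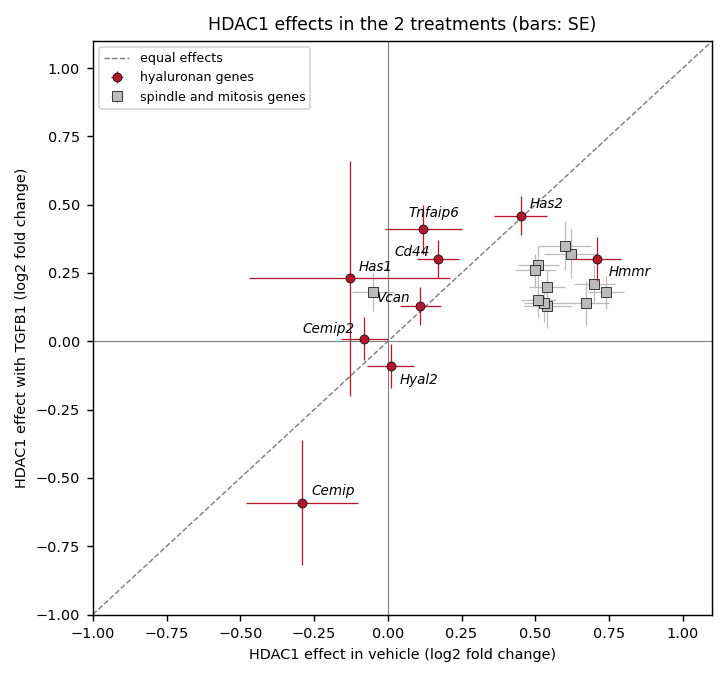
HDAC1 effect with TGFB1 (vertical axis) against HDAC1 effect in vehicle (horizontal axis), both as log2 fold changes with their SE, for the 9 hyaluronan genes (circles) and 12 spindle and mitosis genes (squares). The dashed line marks equal effects. Has2 lies on it at 0.45 and 0.46, while Hmmr, at 0.71 and 0.30, lies below it among most of the mitosis genes.

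Hmmr was set beside 12 genes of the spindle and mitosis. With HDAC1 in vehicle 11 of them rose and 0 fell, with a median log2 fold change of 0.54 against -0.01 over all genes, of which 6.64% were called higher. Kif20a, a motor of cell division, was at 0.74, Ccnb1 (cyclin B1) at 0.70 and Plk1, a mitotic kinase, at 0.67 (edgeR adjusted p = 1.59e-06, 2.57e-06 and 1.84e-05). With TGFB1 present 5 of the 12 rose with HDAC1, at a median of 0.19, beside 2.17% of all genes called higher, among them Kif11, the spindle motor Eg5, at 0.26 (edgeR adjusted p = 0.0177). That count was 0 without HDAC1 TGFB1 replicate 1 or 3, without vector TGFB1 replicate 3 or with the heart covariate, 1 without vector TGFB1 replicate 1, 3 with the replicate block or with only the groups compared, and 8 without vector TGFB1 replicate 2. TGFB1 raised 11 of the 12 with the vector (median 0.63) and 9 with HDAC1 (median 0.29, 5 genes without HDAC1 TGFB1 replicate 1), beside 25.9% and 24.9% of all genes called higher. In the test of the difference Kif20a (-0.56), Plk1 (-0.53) and Ccnb1 (-0.49) were called lower (edgeR adjusted p = 0.0153, 0.0337 and 0.0262), beside 0.342% of all genes. None of the 12 was called there with the heart covariate or without HDAC1 TGFB1 replicate 1 or 3, and 1 was called without HDAC1 vehicle replicate 1 or 3 or vector vehicle replicate 2. As many as 5 were called without HDAC1 vehicle replicate 2, vector vehicle replicate 3 or vector TGFB1 replicate 3, 6 without a filter and 7 by DESeq2. Over 18 alternatives Kif20a was called in 15, Ccnb1 in 12 and Plk1 in 8, with edgeR or DESeq2 adjusted p up to 0.497, 0.497 and 0.605. The Hmmr value of -0.41 lies within the range of the 12 genes, -0.56 to 0.23.

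The wider pathway was followed in 36 measured genes that supply, degrade, bind or anchor hyaluronan, the 9 members left out. Under TGFB1 12 rose and 12 fell with the vector, and 13 rose and 10 fell with HDAC1. Their median log2 fold changes were 0.05 and -0.02, against 0.01 and -0.02 over all genes. The counts called, 24 and 23 of 36, stand beside the 50.9% and 49.1% of all genes given above.

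The list for the sugar precursors held 9 genes, which make the precursors or draw on them. Under TGFB1 4 rose and 1 fell with the vector, where 50.9% of all genes were called. With HDAC1 6 rose and 1 fell, where 49.1% were called. Gfpt2, which starts the route to N-acetylglucosamine, was at 48.1 ± 1.86 CPM with HDAC1 and TGFB1 and 16.0 ± 1.42 CPM with HDAC1 in vehicle, and at 43.5 ± 6.48 CPM with the vector and TGFB1 and 12.9 ± 1.89 CPM with the vector in vehicle (SD, n = 3 each). Its log2 fold changes were 1.74 with the vector and 1.58 with HDAC1 (edgeR adjusted p = 7.10e-11 and 1.70e-10). Ugdh, which makes the activated glucuronic acid, rose by 0.58 and 0.66 (edgeR adjusted p = 2.87e-08 and 4.98e-09). Uap1, which finishes the activated N-acetylglucosamine, fell by 0.81 and 0.85 (edgeR adjusted p = 8.73e-10 and 4.39e-10). The acetyltransferase Gnpnat1 and the mutase Pgm3 rose in both cell groups, by 0.29 to 0.60.

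Degradation genes, most of them lysosomal, fell under TGFB1 where they were called. Of 9 on the list 5 were measured. All 5 fell with the vector, where 25.0% of all genes were called lower, and 3 fell and 2 were not called with HDAC1, where 24.2% were called lower. Hyal1, the lysosomal hyaluronidase, was at 1.76 ± 0.163 CPM with HDAC1 and TGFB1 and 5.84 ± 0.238 CPM with HDAC1 in vehicle, and at 1.20 ± 0.119 CPM with the vector and TGFB1 and 5.01 ± 0.309 CPM with the vector in vehicle (SD, n = 3 each). It fell by 2.06 with the vector and by 1.72 with HDAC1 (log2, edgeR adjusted p = 4.89e-09 and 2.87e-08). Hyal1, Hyal3 and Naa80 overlap in the RefSeq annotation, so their counts are uncertain. Hexa, a lysosomal enzyme that trims amino sugars from chain ends, fell by 0.57 with the vector and by 0.46 with HDAC1. It overlaps Tmem202, with the same uncertainty. In all, 15 of the 29 pathway genes called in at least 1 comparison overlap another RefSeq gene, among them Gfpt2, Ugdh, Uap1, Gnpnat1, Layn, Ptx3, Adamts9, Msn, Rdx and Ank3, and their values carry the same uncertainty.

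Under TGFB1 no receptor outside the members was called higher, while coat genes moved both ways. Of 4 receptors measured, of 6 on the list, 2 fell and 0 rose with the vector. With HDAC1 1 fell and 0 rose, beside 25.0% (vector) and 24.2% (HDAC1) of all genes called lower. Layn (layilin), a membrane receptor for hyaluronan, fell by 0.92 with the vector and by 1.01 with HDAC1, and Tlr4 fell by 0.49 with the vector and stood at -0.23 with HDAC1 (edgeR adjusted p = 0.0761). Of 13 coat genes measured, of 21 on the list, 5 rose and 2 fell with the vector, and 5 rose and 4 fell with HDAC1. These 7 and 9 of 13 called stand beside 50.9% and 49.1% over all genes. Hapln3, a link protein that ties proteoglycans to the chain, was at 3.99 ± 0.332 CPM with HDAC1 and TGFB1 and 1.26 ± 0.387 CPM with HDAC1 in vehicle, and at 3.19 ± 0.316 CPM with the vector and TGFB1 and 1.13 ± 0.297 CPM with the vector in vehicle (SD, n = 3 each). Adamts9 and Adamts1, proteases that cut versican, rose by 0.79 and 0.35 with the vector and by 1.43 and 0.76 with HDAC1. Ptx3, a pentraxin that binds TSG-6, fell by 1.17 and 0.86. Of 5 genes that tie CD44 to the cytoskeleton, Msn (moesin) and Rdx (radixin) rose in both cell groups, by 0.32 to 0.43, and Ank3 (ankyrin G) fell by 0.99 and 1.17.

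**Figure D4:**
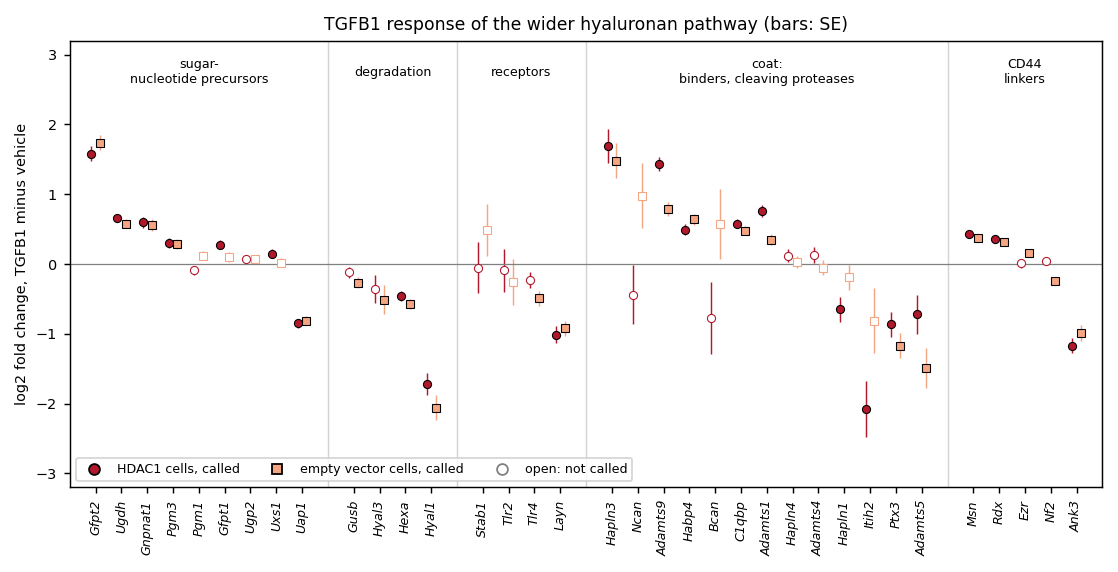
Log2 fold change under TGFB1 (vertical axis, bars are the SE) of measured pathway genes that are not members, in HDAC1 cells (circles) and empty vector cells (squares), grouped by role. Filled symbols were called and open symbols were not. The degradation genes shown lie below 0, and Gfpt2, at 1.58 and 1.74, stands above the other precursor genes.

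HDAC1 changed fewer of the 36 genes than TGFB1 did, as it did of all genes tested. In vehicle 3 rose and 5 fell, beside 14.0% of all genes called (6.64% higher and 7.32% lower). With TGFB1 1 rose and 3 fell, beside 6.53% of all genes called (2.17% higher and 4.36% lower). Hexa was at 126 ± 4.89 CPM with HDAC1 and TGFB1 and 152 ± 12.5 CPM with the vector and TGFB1, and at 173 ± 9.10 CPM with HDAC1 in vehicle and 226 ± 17.7 CPM with the vector in vehicle (SD, n = 3 each). Its log2 fold change was -0.39 in vehicle and -0.28 with TGFB1 (edgeR adjusted p = 0.000755 and 0.0247). Gusb, the lysosomal beta-glucuronidase, was called in vehicle at -0.34 (edgeR adjusted p = 0.00790). Further calls in vehicle were rises of Itih2 (1.33), Pgm1 (0.27) and Ezr (0.25) and falls of Adamts9 (-0.49) and Nf2 (-0.26). Itih2 was low and spread widely in vehicle, at 0.944 to 2.77 CPM with HDAC1 (24 to 105 counts) and 0.608 to 0.884 CPM with the vector (13 to 20 counts). With TGFB1 the further calls included a rise of C1qbp (0.28) and a fall of Ank3 (-0.44). The count in vehicle was 4 without HDAC1 vehicle replicate 1, and the count with TGFB1 was 0 without HDAC1 TGFB1 replicate 1 or 3 and 2 without vector TGFB1 replicate 1. None of the 36 was called by edgeR for the difference of the HDAC1 effects (5 had an unadjusted p under 0.05), and DESeq2 called 2. The nearest, named after its values were seen, was Adamts9, whose HDAC1 effect was -0.49 in vehicle and 0.16 with TGFB1, a difference of 0.65 (edgeR adjusted p = 0.0563, and from 1.76e-06 to 0.615 over its alternatives).

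The genes whose centred log2 CPM lay closest to a member's over the 12 libraries were sought among 11575 genes with a symbol and a mean of at least 1 CPM. For Has2 they were Itga2, an integrin subunit that binds collagen, C1h10orf90 and Fam167a, at mean absolute differences of 0.0975, 0.175 and 0.188 log2 units, where Has2 itself spanned 3.44. For Tnfaip6, which spanned 3.93, they were Enpp1, a pyrophosphate-making enzyme (0.189), Prkg2 (0.215) and the BMP receptor Bmpr1b (0.215). For Hmmr, which spanned 1.24, they were the mitotic kinases Ttk (0.0462) and Mastl (0.0593) and the condensin subunit Ncapg (0.0650). For Cd44, which spanned 0.886, they were Stam (0.0371), Dis3 (0.0380) and Ahctf1 (0.0391), and for Cemip, which spanned 1.96, Gramd1b (0.142), Slc2a12 (0.154) and Lurap1l (0.159). The closest to Has1 was Itga10 (0.182), to Cemip2 Ankrd27 (0.0476), to Hyal2 Farsa (0.0334) and to Vcan Nmt2 (0.0317).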

How the data were processed

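Poly(A) RNA of 12 libraries of NRK-49F cells was sequenced. The authors deposited raw counts per gene and a normalized signal, used for the gene symbols of 14275 genes. Within each library the signal was checked against the counts and differs from them by a single scaling constant. The tools named per the submitters' processing notes are Trim Galore 0.6.7 (read trimming), Subread 2.0.1 with its featureCounts (counting per gene) and DESeq2 1.44. The build listed there is mm10, whereas the identifiers are rat Ensembl genes. The aligner and rat build are not given in the sources used here. Raw counts were tested with edgeR 4.0.16 (R 4.3.3): filterByExpr, TMM, a robust quasi-likelihood fit with 1 mean per group over the 12 libraries (8 residual degrees of freedom) and Benjamini-Hochberg adjustment over 14601 genes, two-sided. The SE is the log2 fold change divided by the square root of F. The steps were tested on simulated data. Genes named are the 9 members, pathway genes called in at least 1 comparison, up to 4 spindle genes per comparison, the 3 genes closest in pattern to a member, and Hdac1 and Hdac1l as a check. The counts over the pathway list include 1 gene that is not reported here by name. The members and lists were chosen with earlier results of these data known. Alternatives were DESeq2 size factors, DESeq2 1.42.0, other filters, only the 2 groups compared, a replicate block, leaving out each library, and a covariate of heart transcripts added after the data were seen.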

Additional observations from a re-analysis of the deposited data

How the results depend on the processing

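Of 625 repeats of the members' fold changes, 564 kept direction and call, 42 lost the call, 3 gained it and 16 changed sign, all of them values not called at first. The counts of members called ran, without single libraries, from 7 to 8 (TGFB1 with the vector), 5 to 7 (TGFB1 with HDAC1, 5 without HDAC1 TGFB1 replicate 1), 2 to 3 (HDAC1 in vehicle), 1 to 4 (HDAC1 with TGFB1) and 0 to 0 (difference). For pathway genes they ran from 22 to 25, 21 to 22, 4 to 11, 0 to 5 and 0 to 1. With the heart covariate, HDAC1 with TGFB1 had 0 members and 0 pathway genes called, where the heart sums of the groups do not overlap. Nor do the heart sums overlap between TGFB1 and vehicle in either cell group. Without a filter 1 member (Hmmr) and 2 pathway genes were called for the difference, and the DESeq2 test called 2 pathway genes. With the replicate block the members called were 8, 7, 2, 4 and 0 and the pathway genes 22, 23, 8, 4 and 1, the last being Adamts9. Replicate numbers were not seen to pair the libraries (2 of 18 same-numbered pairs correlated over 0.1, 5 of 12 libraries correlated best with their own number), which does not exclude pairing. Sign changes, none in a called value, were as follows. For HDAC1 in vehicle, Has1 ran from -0.24 to 0.07 and Hyal2 from -0.02 to 0.05 (-0.00 among them) without single libraries. For HDAC1 with TGFB1, Has1 ran from -0.07 to 0.52 (-0.03 among them) and Cemip2 from -0.06 to 0.06 (-0.04 among them), and Cemip2 was -0.05 with the covariate. For the difference, Has2 ran from -0.09 to 0.07 (-0.05, -0.02, -0.01 and -0.00 among them) and was -0.00 with a minimum mean of 1 CPM, and Vcan ran from -0.07 to 0.07 (-0.02 among them). The filter on a mean of 1 CPM left Has1 out and gave no value for it. The fit to the compared groups alone was not run for the difference, which uses all 4. Depth limits Has1, at 5 to 37 counts per library. Where a cause is not named, the cause was not tested.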
